A study of Homo sapiens with 6 samples.

Results

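The Polycomb repressive complex 1 (PRC1) genes described here are RING1, RNF2, BMI1, PCGF1, PCGF6, CBX2, CBX7, CBX8 and PHC2, that is, 9 of the 18625 genes with a row in the table of normalized expression. They were chosen by gene symbol, and all 9 had a row of their own. Their RNA was measured in NB4 cells, a human acute promyelocytic leukemia cell line that carries the PML-RARA fusion. The cells were cultured for 3 days with the solvent DMSO alone (DMSO group) or with Tanshinone I (Tan I), a diterpene from the root of Salvia miltiorrhiza, at 10 μM (Tan I group). There were 3 libraries in each group, and the labels do not say whether they came from separate cultures, so p-values measure only the spread between these libraries, which may be technical. Because the study was concerned with the inhibition of EZH2, the catalytic subunit of PRC2, the comparison asks how the RNA of the other Polycomb complex stood after treatment.

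PRC1 is a repressive chromatin complex built around an E3 ubiquitin ligase, RING1 or its paralog RNF2, which places ubiquitin on histone H2A. The ligase is always paired with a PCGF protein, and the choice of PCGF protein sets the kind of complex. Canonical complexes with BMI1 (PCGF4) or PCGF2 also hold a CBX protein, whose chromodomain reads the H3K27me3 mark laid down by PRC2, and a polyhomeotic protein such as PHC2. Variant complexes with PCGF1 or PCGF6 lack the CBX reader. In blood, BMI1 is known for sustaining the self-renewal of stem cells and of leukemic cells.

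The libraries held 25356503 to 31679138 reads on the listed genes in DMSO (median 27282579) and 21502760 to 24298627 in Tan I (median 24250439). They differed along a gradient that the groups do not explain. The first principal component of the 16887 genes tested held 70.8% of the variance, and its scores ran from -48.0 to 41.1 in DMSO and from -46.8 to 71.6 in Tan I. Of the promyelocyte markers, 6 of 7 were tested, and MPO, the myeloperoxidase of primary granules, had between 33279 and 64107 normalized counts. MPO and CTSG were lower in Tan I without adjustment (log2 fold changes of -0.78 and -0.69, adjusted p of 0.999 from limma), and no other marker of the list passed that test. In bulk RNA, fewer cells of a type and less RNA per cell cannot be told apart. Of the 8 markers of other blood cells, 4 had a row, and the megakaryocyte integrin ITGA2B was the highest at 1060 to 1418 normalized counts. It was higher in Tan I without adjustment (log2 fold change of 0.35, adjusted p of 0.999). The summed level of the promyelocyte markers was 71171 to 77317 normalized counts in DMSO and 42027 to 50381 in Tan I. Most of that sum was MPO alone, at 60389 to 64107 in DMSO and 33279 to 39450 in Tan I. MPO and CTSG aside, the groups overlapped for each promyelocyte marker tested. The summed level of the other blood cell markers was 1443 to 1608 in DMSO and 1729 to 2014 in Tan I. The part of both sets of markers in the PRC1 values was not tested.

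None of the 9 PRC1 genes was called in Tan I against DMSO. Genes were called where limma gave an unadjusted p of at most 0.05 together with a log2 fold change of 0.25 or more in either direction, the thresholds of the study, on log2(normalized count + 1). By this rule 0 of the 9 genes were called, against a background of 2.42% of the 16887 genes tested. With Benjamini-Hochberg adjustment over all genes tested, limma called 0 of them, as it did of all genes (background 0.0%), and 0 of the 9 genes had an unadjusted p of at most 0.05. Of the 9 genes, 5 had a fold change above 0 and 4 below 0, with a median log2 fold change of 5.4e-05, beside -0.0016 over all genes tested. The values of the 3 libraries in each group did not overlap for 1 gene, CBX2, while 7.89% of all genes tested showed such a separation. No interval of the 9 genes reached a 2-fold change: the 95% confidence intervals of the log2 fold change lay between -0.52, the lower bound of CBX7, and 0.73, the upper bound of PCGF1.

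**Figure D1:**
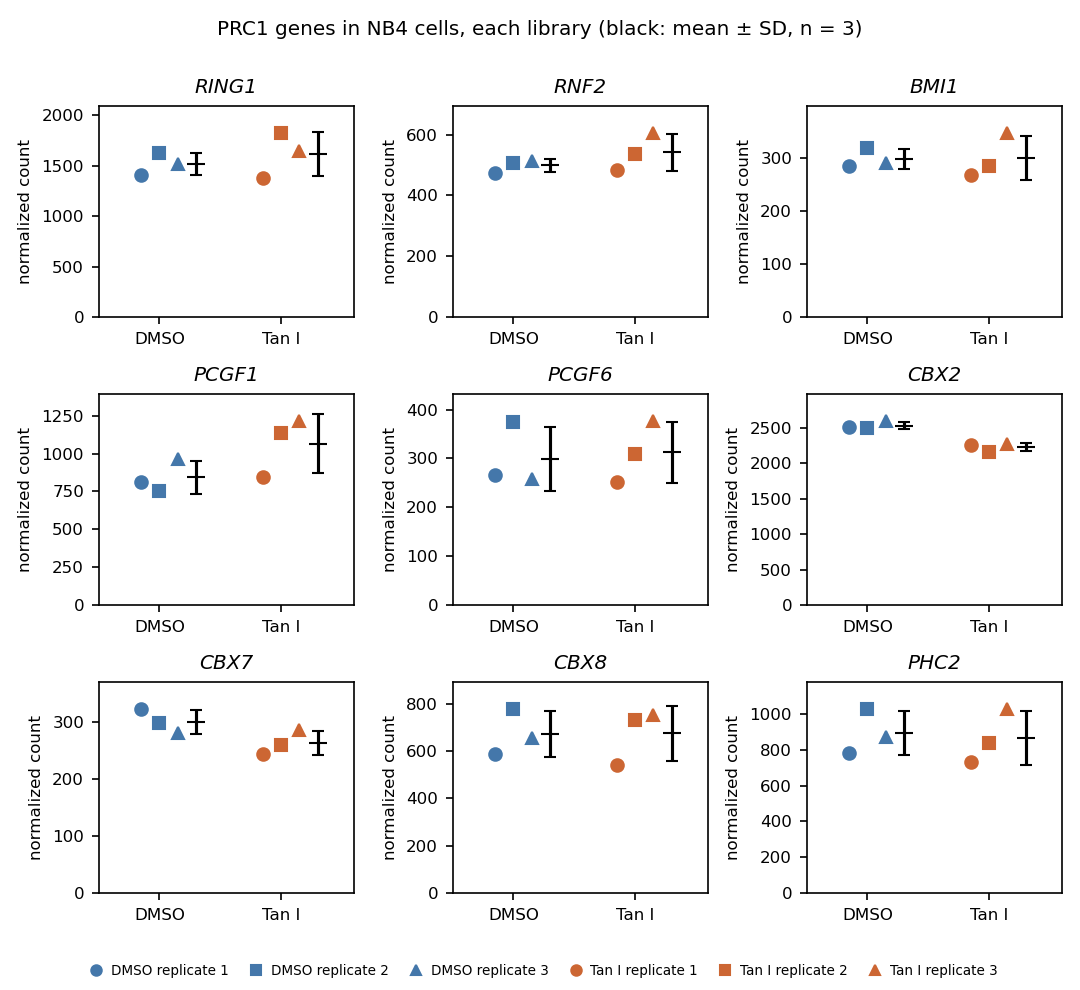
Normalized counts (y axes, from 0) of the 9 PRC1 genes in each library, with the DMSO libraries in blue and the Tan I libraries in orange; marker shapes give the replicate number, and black bars give the mean ± SD of 3 libraries. The groups overlap in every panel except that of CBX2, whose Tan I libraries sit between 2167 and 2268 and its DMSO libraries between 2498 and 2596.

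Both ligase genes have 7 exons in their canonical transcripts, RING1 (ENSG00000204227; GRCh38 chromosome 6, 33208500 to 33212722, + strand) and RNF2 (RING1B, ENSG00000121481; chromosome 1, 185045526 to 185102603, + strand). Both encode a RING finger ligase and either can serve in a complex, yet their RNA levels stood far apart. The starts of both genes are shown, and any part of these sequences in the levels was not tested. The sequences are the RefSeq promoters on GRCh38.p14, 300 bases from 250 before to 50 after the start that RefSeq gives, at chr6:33208250-33208549 for RING1 and chr1:185045308-185045607 for RNF2, both on the + strand. The RefSeq start of RNF2, 185045558, lies downstream of the GENCODE start given above. Capitals mark the GC box GGGCGG, searched on both strands (it also stands as its reverse complement), and the CCAAT box, searched in the same way, was found in neither.
RING1: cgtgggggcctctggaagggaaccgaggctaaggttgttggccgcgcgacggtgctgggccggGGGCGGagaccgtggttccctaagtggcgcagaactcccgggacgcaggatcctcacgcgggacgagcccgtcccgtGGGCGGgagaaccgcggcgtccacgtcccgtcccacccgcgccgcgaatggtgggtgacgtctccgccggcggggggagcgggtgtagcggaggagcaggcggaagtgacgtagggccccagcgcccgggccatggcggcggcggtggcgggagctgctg
RNF2: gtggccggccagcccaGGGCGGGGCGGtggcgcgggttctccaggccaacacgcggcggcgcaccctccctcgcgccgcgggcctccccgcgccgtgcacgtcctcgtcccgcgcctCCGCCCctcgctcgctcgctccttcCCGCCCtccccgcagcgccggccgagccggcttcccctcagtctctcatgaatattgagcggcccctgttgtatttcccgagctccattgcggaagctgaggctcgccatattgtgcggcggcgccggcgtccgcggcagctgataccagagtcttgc
The RING1 window held 2 GC boxes and the RNF2 window 4, of which an adjoining pair shares a G, and each window held 41 CG dinucleotides. Of 35116 RefSeq promoters of this length, 44.95% held a GC box and 34.61% a CCAAT box, and the median number of CG dinucleotides was 14. RefSeq promoters were matched for 7 of the 9 genes, and there was no entry for CBX2 and CBX8.

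RING1 had 1404, 1623 and 1511 normalized counts in DMSO replicates 1, 2 and 3, and 1381, 1818 and 1648 in Tan I replicates 1, 2 and 3. The lowest and the highest value were both in Tan I, so the groups overlapped. The means were 1513 ± 109 and 1616 ± 220 (SD, n = 3 each), and limma gave a log2 fold change of 0.09 (95% confidence interval -0.23 to 0.41, adjusted p = 0.999). RNF2 had 475, 507 and 514 normalized counts with DMSO and 485, 535 and 604 with Tan I. Tan I replicates 2 and 3 lay above every DMSO library, and Tan I replicate 1 lay among them. The log2 fold change of RNF2 was 0.11 (limma, interval -0.19 to 0.42, adjusted p = 0.999), and it was 0.032 without Tan I replicate 3 and 0.19 without Tan I replicate 1. Per kilobase (kb) of annotated exon, RING1 had 834 ± 60.3 normalized counts in DMSO and RNF2 128 ± 5.37, and in Tan I they had 891 ± 121 and 139 ± 15.3 (SD, n = 3 each). RING1 therefore made up 86.7% ± 0.55 of the ligase level per kb in DMSO and 86.5% ± 1.33 in Tan I (exact two-sided permutation test, p = 0.8, n = 3 each, a design in which p cannot go below 0.1).

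The PCGF genes include the canonical subunit BMI1 and the variant subunits PCGF1 and PCGF6. BMI1 (ENSG00000168283; chromosome 10, 22321099 to 22331484, + strand) had 283, 319 and 289 normalized counts with DMSO and 267, 284 and 345 with Tan I. The DMSO values fell inside the range of the Tan I values, and the means were 297 ± 19.0 and 299 ± 41.4 (SD, n = 3 each). In limma its log2 fold change was 5.4e-05 (standard error 0.15, interval -0.36 to 0.36, adjusted p = 0.99995). In GENCODE release 44, 1000 of the 4395 exon bases of BMI1 (22.75%) are shared with the readthrough gene COMMD3-BMI1 on the same strand, so its counts depend on how shared reads were assigned, which is not given in the sources used here.

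PCGF1 (ENSG00000115289; chromosome 2, 74505043 to 74507695, - strand), the PCGF subunit of the variant complex with KDM2B and BCOR, had the largest absolute fold change of the 9 genes. It had 811, 756 and 967 normalized counts with DMSO and 848, 1136 and 1214 with Tan I. Tan I replicates 2 and 3 lay above every DMSO library, but Tan I replicate 1 lay below DMSO replicate 3. The means were 845 ± 109 and 1066 ± 192 (SD, n = 3 each). In limma its log2 fold change was 0.33 (standard error 0.17, interval -0.08 to 0.73, unadjusted p = 0.0976, adjusted p = 0.999). Without Tan I replicate 1, the log2 fold change was 0.48 and PCGF1 passed the unadjusted rule (adjusted p of 0.532 from limma). In that fit 1496 of the 16887 genes tested passed the rule, beside 408 with all libraries. An antisense gene, LBX2-AS1, covers 49 of the exon bases of PCGF1 and had 53.2, 87.6 and 68.0 normalized counts with DMSO and 74.3, 95.9 and 101 with Tan I; without a stated strand setting, reads of the shared part cannot be told apart. Of its partners, KDM2B, which brings the complex to unmethylated CpG islands, had a log2 fold change of -0.18 (interval -0.54 to 0.17), and the corepressor BCOR had -0.29 (interval -0.65 to 0.06), both with an adjusted p of 0.999 from limma.

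PCGF6 (ENSG00000156374; chromosome 10, 103302796 to 103351144, - strand), which works with MGA, MAX and E2F6 in a variant complex, had 266, 374 and 257 normalized counts with DMSO and 251, 310 and 376 with Tan I. DMSO replicate 2 and Tan I replicate 3 stood together above the other libraries, and both are high on the first principal component. The log2 fold change was 0.07, and its interval of -0.44 to 0.57 was the widest of the 9 genes.

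**Figure D2:**
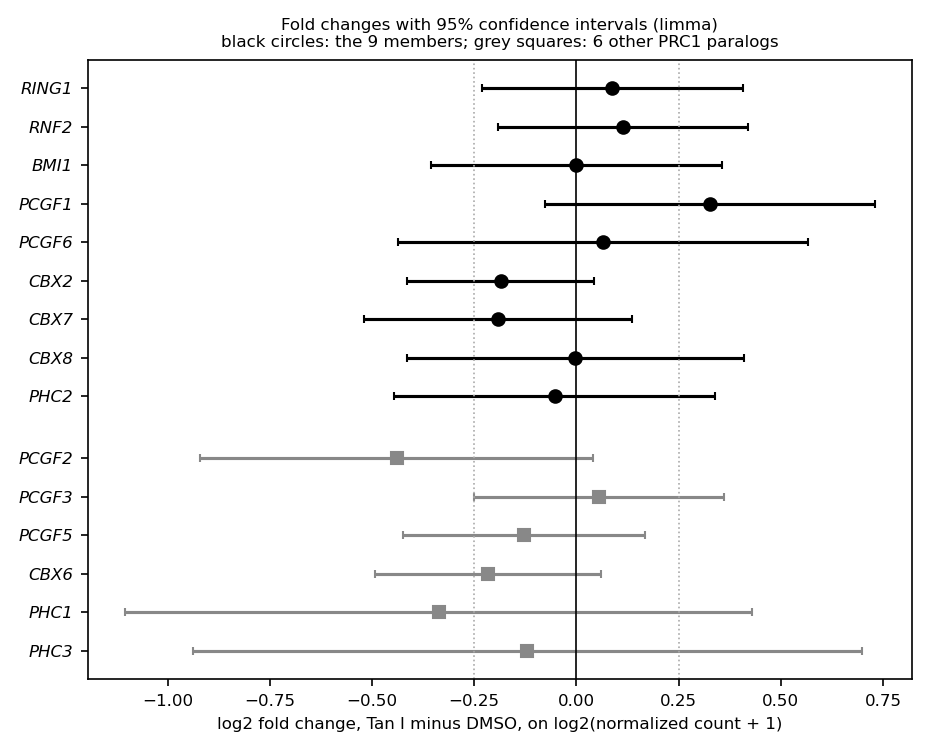
Log2 fold changes (x axis, Tan I minus DMSO on log2(normalized count + 1)) with 95% confidence intervals from limma, for the 9 genes (black circles) and the 6 other PRC1 paralogs (grey squares). Dotted lines mark the fold threshold of 0.25 in each direction, and every interval crosses 0; CBX2 has the narrowest interval, from -0.41 to 0.04.

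CBX2, a CBX reader, was the only one of the 9 genes whose groups did not overlap. CBX2 (ENSG00000173894; chromosome 17, 79778148 to 79787983, + strand) had 2511, 2498 and 2596 normalized counts with DMSO and 2256, 2167 and 2268 with Tan I. Every Tan I library lay below every DMSO library, and the spread within each group was small, with coefficients of variation of 2.10% and 2.48%. The means were 2535 ± 53.3 and 2230 ± 55.4 (SD, n = 3 each), a difference of -12.0% with an interval of -24.9% to 3.07%. The exact two-sided permutation test gave p = 0.1 (n = 3 each), the smallest this design allows, and limma gave a log2 fold change of -0.18 (standard error 0.10, unadjusted p = 0.0980, adjusted p = 0.999). Of all genes tested, 3.97% had every Tan I library below every DMSO library, so this separation was 1 of 671.

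CBX7 (ENSG00000100307; chromosome 22, 39120167 to 39152680, - strand), a reader known for repressing the INK4 cell cycle inhibitors, had 322, 298 and 280 normalized counts with DMSO and 243, 258 and 285 with Tan I. Only Tan I replicate 3 reached into the DMSO range, above DMSO replicate 3. The log2 fold change was -0.19 (limma, interval -0.52 to 0.14, adjusted p = 0.999). An antisense transcript, AL031846.2, covers 17.92% of the exon bases of CBX7 and had a mean of 64.2 normalized counts with DMSO and 47.0 with Tan I. CBX8 (ENSG00000141570; chromosome 17, 79792132 to 79801683, - strand) had 587, 776 and 654 normalized counts with DMSO and 540, 730 and 752 with Tan I. Replicate 1 was the lowest library in both groups, and the means, 672 ± 96.2 and 674 ± 117 (SD, n = 3 each), differed by less than the spread (log2 fold change -0.0022, interval -0.41 to 0.41).

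CBX6, a further CBX reader of Polycomb, also had groups that did not overlap, with Tan I lower as for 3.97% of all genes tested. CBX6 had 1039, 1142 and 1078 normalized counts with DMSO and 1015, 950 and 845 with Tan I, and a log2 fold change of -0.22 (interval -0.49 to 0.06). Thus 4 of the 4 Polycomb CBX genes compared had a fold change below 0, with a median of -0.19, where 50.3% of all genes tested had one below 0. None of the 4 was called, the adjusted p was 0.999 for each in limma, and without DMSO replicate 2 or without Tan I replicate 1 the fold change of CBX8 was above 0 (0.11 and 0.15). CBX2 and CBX8 lie 4148 bases apart on chromosome 17, and their log2 fold changes were -0.18 and -0.0022.

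PHC2 (ENSG00000134686; chromosome 1, 33323623 to 33431095, - strand), a polyhomeotic subunit whose SAM domain links canonical complexes to each other, had 786, 1029 and 873 normalized counts with DMSO and 730, 842 and 1028 with Tan I. The highest libraries of the 2 groups were almost equal, and the log2 fold change was -0.05 (limma, interval -0.45 to 0.34, adjusted p = 0.999). Its paralogs PHC1 and PHC3 varied far more between libraries. PHC1 had 2630, 1522 and 2432 normalized counts with DMSO and 2463, 1819 and 1078 with Tan I, and PHC3 had 2199, 1138 and 1746 in DMSO and 2359, 1462 and 987 in Tan I. For both genes DMSO replicate 2 and Tan I replicate 3 were the lowest libraries of their groups, whereas for PHC2 the same libraries were the highest.

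Most of the 9 genes ordered the Tan I libraries as PHC2 did, but most did not share its order of the DMSO libraries. Within Tan I, replicate 1 was the lowest library for 8 of the 9 genes and replicate 3 the highest for 8 of the 9. Within DMSO, replicate 1 was the lowest for 5 genes and replicate 2 the highest for 5. The 6 other paralogs ran the opposite way in Tan I, where replicate 1 was the highest and replicate 3 the lowest for 6 of 6. The libraries that were low for most of these genes, DMSO replicate 1 and Tan I replicate 1, had the lowest scores on the first principal component (-48.0 and -46.8), and DMSO replicate 2 and Tan I replicate 3 had the highest (41.1 and 71.6). CBX2 departed from this order, with its lowest value in Tan I replicate 2 and its highest in DMSO replicate 3. It was not alone: CBX7 was highest in DMSO replicate 1 (322) and PCGF1 lowest in DMSO replicate 2 (756). The part of the gradient in the treatment comparison was not tested beyond its use as a covariate. With it, CBX2 had a log2 fold change of -0.18 (limma, unadjusted p = 0.0074, adjusted p = 0.158), short of the fold threshold. In that fit 1496 of the 16887 genes tested were called without adjustment, and 195 had an adjusted p of at most 0.05 in limma.

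**Figure D3:**
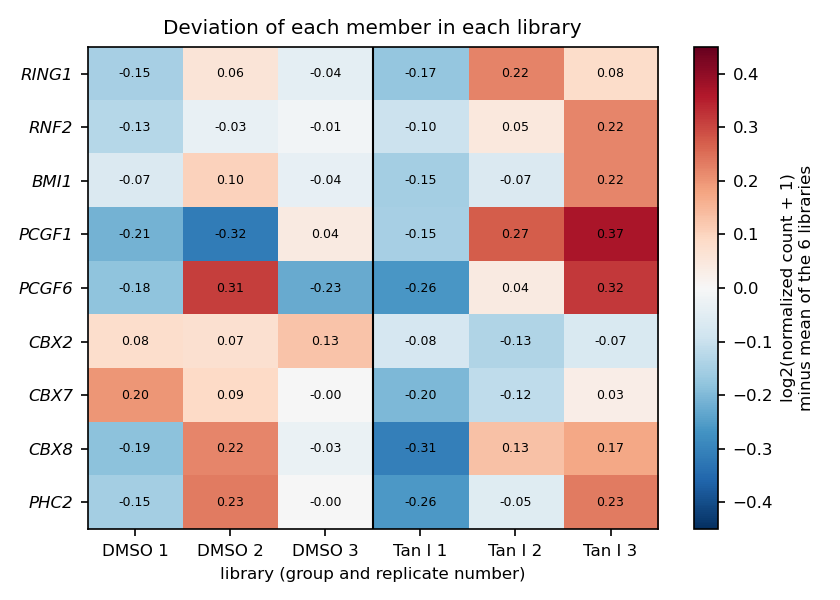
Deviation of each of the 9 genes (rows) in each library (columns) from the mean of its 6 libraries, on log2(normalized count + 1); red is above and blue below that mean, and the black line divides DMSO from Tan I. Column Tan I 1 is blue for all 9 genes, Tan I 3 is red for 8 of them, and CBX2 is red in the 3 DMSO columns and blue in the 3 Tan I columns.

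The genes also differed in level. Levels were compared as normalized counts per kb of all annotated exons of the gene (GENCODE release 44), which need not be the transcripts these cells use. Among the 9 genes in DMSO the order was RING1 (834 ± 60.3), PCGF1 (484 ± 62.6), CBX2 (447 ± 9.40), CBX8 (163 ± 23.3), PHC2 (161 ± 22.2), RNF2 (128 ± 5.37), PCGF6 (99.4 ± 21.6), BMI1 (67.6 ± 4.32) and CBX7 (40.1 ± 2.82; SD, n = 3 each). The order of the means was the same in Tan I, from 891 ± 121 for RING1 down to 35.1 ± 2.85 for CBX7. Over the 6 libraries, the values of RING1 and PCGF1, of CBX2 and CBX8, of PCGF6 and BMI1 and of BMI1 and CBX7 did not overlap. The values of PCGF1 and CBX2, of CBX8 and PHC2, of PHC2 and RNF2, and of RNF2 and PCGF6 did, although PHC2 lay above RNF2 and RNF2 above PCGF6 within 6 of 6 libraries. The order depended on the length used: with the canonical transcript alone, a choice made after seeing the data, PCGF1 stood above RING1 and PHC2 above CBX8 in DMSO.

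Among the CBX readers, CBX2 made up 56.9% ± 2.28 of the summed level per kb of CBX2, CBX6, CBX7 and CBX8 in DMSO and 55.5% ± 2.13 in Tan I, and CBX7 made up 5.11% ± 0.50 and 4.95% ± 0.28 (SD, n = 3 each). The share of CBX8 was 20.7% ± 2.27 in DMSO and 23.0% ± 3.45 in Tan I, with overlapping libraries (exact two-sided permutation test, p = 0.3, n = 3 each). Among the 6 PCGF genes, PCGF1 held 42.0% ± 2.73 in DMSO and 47.3% ± 5.11 in Tan I, and PCGF3 held 35.3% ± 2.74 and 33.0% ± 4.96. BMI1, the best known of the family in leukemia, held 5.91% ± 0.77 and 5.28% ± 0.43 (exact two-sided permutation test, p = 0.3, n = 3 each). The other PCGF gene of canonical complexes, PCGF2 (MEL18), held the lowest share, 2.05% ± 0.17 in DMSO and 1.37% ± 0.34 in Tan I. These shares used all annotated exons, were not computed with canonical transcript lengths, and would differ with them. For PCGF1 to BMI1 in DMSO, the log2 ratio per kb was 2.84 with all exons and 3.47 with the canonical transcript.

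**Figure D4:**
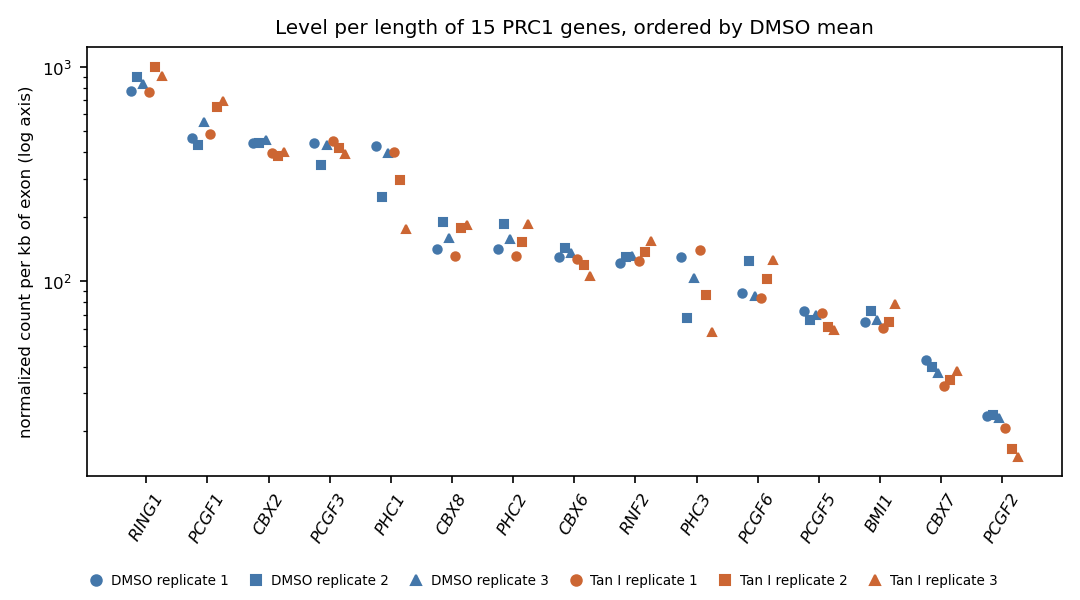
Normalized counts per kb of annotated exon (y axis, log scale) of 15 PRC1 genes in each library, ordered from left to right by the mean in DMSO; blue is DMSO, orange is Tan I, and shapes give the replicate number. RING1 is the highest and PCGF2 the lowest, and RNF2 lies below RING1 in all 6 libraries.

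PCGF2 had the lowest counts of the 15 genes and the largest absolute log2 fold change among them. It had 83.0, 83.8 and 81.3 normalized counts with DMSO and 72.3, 58.0 and 53.3 with Tan I. The groups did not overlap, with Tan I lower as for 3.97% of all genes tested. The log2 fold change was -0.44 (limma, interval -0.92 to 0.04, adjusted p = 0.999, unadjusted p = 0.0678). PCGF2 passed the unadjusted rule without the trend in limma (adjusted p of 0.999), after adjustment for the first principal component (log2 fold change -0.39, adjusted p of 0.322) and without Tan I replicate 1 (log2 fold change -0.56, adjusted p of 0.532). In those fits, in that order, 556, 1496 and 1496 of the 16887 genes tested passed the rule, beside 408 in the main fit. The opposite-strand gene CISD3 covers 48.52% of the exon bases of PCGF2 and had a mean of 298 normalized counts with DMSO and 321 with Tan I, so the origin of reads in the shared part is uncertain. PCGF3 and PCGF5, which build further variant complexes, had log2 fold changes of 0.06 (interval -0.25 to 0.36) and -0.13 (interval -0.42 to 0.17). Opposite-strand genes also cover exon bases of PCGF3 (22.03%, by PCGF3-AS1) and of PHC1 (18.05%, by M6PR), with the same limit.

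The balance of paralogs was compared within each library, since a ratio of genes in the same library does not depend on the scaling between libraries. Of 6 pairs compared, 0 had groups that did not overlap. The log2 ratio of RNF2 to RING1 was -1.60 ± 0.07 in DMSO and -1.57 ± 0.17 in Tan I, and that of PCGF6 to BMI1 was -0.01 ± 0.21 and 0.05 ± 0.12 (SD, n = 3 each). PCGF1 to BMI1 went from 1.50 ± 0.25 to 1.82 ± 0.17, with an exact permutation p of 0.2 (0.8 after adjustment over the 6 pairs); the difference of 0.33 was 0.20 without DMSO replicate 2. The ratio of CBX2 to CBX7 was 3.08 ± 0.13 in DMSO and 3.09 ± 0.11 in Tan I, a difference of 0.0073 (exact permutation test, p = 1). CBX2 to CBX8 was 1.92 ± 0.21 and 1.74 ± 0.28, and CBX8 to CBX7 was 1.16 ± 0.26 and 1.35 ± 0.18, with adjusted exact permutation p-values of 0.8 for both. With 3 libraries in each group these tests cannot reach 0.05, so they do not show that the ratios were equal.

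**Figure D5:**
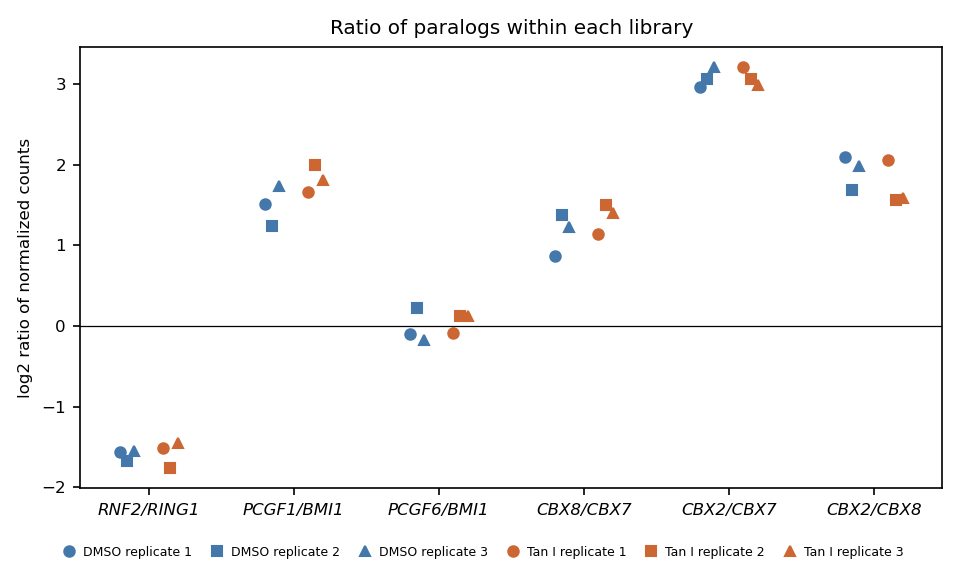
Log2 ratio of the normalized counts of 2 genes within each library (y axis) for 6 pairs of PRC1 genes (x axis); blue is DMSO, orange is Tan I, and shapes give the replicate number. The groups overlap for all 6 pairs, and RNF2 lies below RING1 in every library.

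The wider pathway gave the same count of calls. Of all genes tested, 2.42% were called and 50.3% had a fold change below 0, so counts of 0 in lists this short do not set them apart. Of the 6 other PRC1 paralogs, 0 were called (1, PCGF2, under the 3 alternatives given for it), 5 had a fold change below 0, and the median log2 fold change was -0.17. Of the 24 partners of variant and canonical complexes, 0 were called, with 12 above and 12 below 0 and a median of -0.01. The extremes of that list were SKP1, the adaptor of the KDM2B complex, at 0.32 and AUTS2, a partner in PCGF3 and PCGF5 complexes, at -0.39. All 11 PRC2 genes were tested and 0 were called, with 8 above 0 and a median of 0.10. EZH2 itself had 3795, 3041 and 3730 normalized counts with DMSO and 3920, 3690 and 3349 with Tan I, which overlapped (log2 fold change 0.06, interval -0.25 to 0.36). PHF19, an accessory subunit that reads H3K36 methylation, had every Tan I library above every DMSO library. Its means were 1559 ± 68.4 and 1741 ± 69.2 (SD, n = 3 each), but its adjusted p was 0.999 in limma. Of all genes tested, 7.89% had groups that did not overlap in either direction. Of the 12 genes listed as known Polycomb targets, 5 were tested and 0 were called. Among these, MEIS1, a homeobox partner of HOXA9 in leukemia, had 78.3, 50.1 and 78.1 normalized counts with DMSO and 52.8, 45.3 and 32.0 with Tan I, and the log2 fold change was -0.65 (limma, interval -1.35 to 0.04, adjusted p = 0.999). CDKN1A, the p21 inhibitor of cell cycle kinases, had a log2 fold change of 0.26 (interval -0.15 to 0.67), and HOXA9 had at most 36.6 normalized counts in any library. The INK4 genes CDKN2A and CDKN2B were not analysed here.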

How the data were processed

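RNA-seq of NB4 cells was analysed from 1 table. According to the methods and the submitters' processing notes, the authors aligned reads to GRCh38 with STAR, removed reads mapped to multiple locations, counted reads with featureCounts and used DESeq2; versions, annotation and strand setting are not given in the sources used here. The deposited signal values are counts divided by 1 size factor per library. The deposited table also holds the authors' mean (a signal) and their own comparison, namely p-values, a test score and a log2 fold change, none of which were used.

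In every library the lowest value above 0 stood for 1 read and divided 100% of the values without remainder (tolerance 0.01), so reads were recovered. Intervals and permutation tests cover the spread between libraries only. Normalized values were tested with limma 3.58.1 (R 4.3.3, lmFit and eBayes with trend) on log2(value + 1), which understates changes of low genes, with a minimum mean of 10 over the libraries, which kept 16887 genes and left out 1738. P-values were adjusted by Benjamini-Hochberg over all genes tested. Single genes, shares and ratios were compared with exact two-sided permutation tests (scipy 1.17.1). The fits were tested on simulated counts.

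Alternatives were pseudocounts of 0.1 and 10, no filter, a minimum mean of 50, quantile normalization, equal library totals, no trend, edgeR 4.0.16 and DESeq2 1.42.0 on recovered reads, the replicate block, adjustment for the first principal component, and each library left out. The members and lists were chosen with earlier results of these data known. The genes named are the 9 members, 6 other PRC1 paralogs and, from each further list, those called without adjustment. KDM2B, BCOR, SKP1, AUTS2, EZH2, PHF19, MEIS1, CDKN1A, HOXA9 and the HP1 and deubiquitination genes named were chosen after their values were seen. So were LBX2-AS1, AL031846.2, CISD3, PCGF3-AS1 and M6PR, for their overlap. Gene positions and lengths come from GENCODE release 44 (GRCh38), which holds 99.6% of the identifiers, and promoters from RefSeq (GRCh38.p14). 1 paralog of the lists is not reported here.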

Additional observations from a re-analysis of the deposited data

How the results depend on the processing

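Among the alternatives, the count of PRC1 genes called stayed at 0 of 9 except with adjustment for the first principal component and without Tan I replicate 1, where it was 1, PCGF1 in both (log2 fold changes of 0.29 and 0.48). PCGF2, which is not one of the 9, was called under both and without the trend, a fit in which 556 genes were called. CBX2 was kept from a call by the fold threshold alone in some alternatives. Its unadjusted p was 0.0074 with the component as a covariate (limma), 0.040 with DESeq2 and 0.048 with quantile normalization (limma). No adjusted p of the 9 genes was at most 0.05 in any of 153 gene and alternative combinations, and the smallest was 0.158. The count over all genes was 408; it was 1496 after adjustment for that component, 0 with Benjamini-Hochberg adjustment, and between 160 (without Tan I replicate 2) and 1496 (without Tan I replicate 1) with 1 library left out, being 180 without DMSO replicate 1, 201 without DMSO replicate 3 and 271 without Tan I replicate 3. By the unadjusted rule, 409 genes were called with edgeR and 420 with DESeq2, both run on recovered reads. With Benjamini-Hochberg adjustment, DESeq2 called 16 genes, edgeR 0 and limma with the component as a covariate 195, none of them among the 9. Equal library totals turned the split of calls from 223 higher and 185 lower to 188 and 250. The cause of these changes was not tested.

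Fold changes near 0 changed sign. BMI1 was at -0.059 with equal library totals and at -0.060 after adjustment for the first principal component, PCGF6 at -0.054 and PHC3 at 0.11 after that adjustment, CBX8 at 0.00045 with edgeR and 0.0018 with DESeq2, and PCGF3 at -0.0043 with equal totals. With 1 library left out, the log2 fold change ran from -0.0013 to 0.20 for RING1, -0.11 to 0.076 for BMI1, -0.078 to 0.24 for PCGF6, -0.10 to 0.15 for CBX8, -0.18 to 0.064 for PHC2, -0.050 to 0.12 for PCGF3 and -0.44 to 0.18 for PHC3; it kept its sign but ran from 0.032 to 0.19 for RNF2, -0.20 to -0.077 for PCGF5 and -0.61 to -0.013 for PHC1. CBX2 kept its direction under all 17 alternatives, from -0.24 to -0.16. Because its groups did not overlap, leaving out 1 library or changing the pseudocount could not change its sign. The filters, the trend and the replicate block leave the estimate as it is. CBX6, CBX7, PCGF1, PCGF2, RNF2, PCGF5 and PHC1 also kept their direction under all 17. With 1 library left out, the difference in log2 ratio ran from -0.037 to 0.12 for RNF2/RING1, from -0.053 to 0.073 for CBX2/CBX7 and from -0.013 to 0.19 for PCGF6/BMI1, and, without a change of sign, from 0.20 to 0.45 for PCGF1/BMI1, 0.044 to 0.30 for CBX8/CBX7 and -0.34 to -0.096 for CBX2/CBX8. In DMSO, the log2 ratio of RING1 to PCGF1 per kb was 0.78 with all exons and -0.10 with the canonical transcript. In the same order it was 2.71 and 2.57 for RING1 to RNF2, 2.84 and 3.47 for PCGF1 to BMI1, and 1.46 and 1.61 for CBX2 to CBX8.

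Same-numbered libraries did not all deviate from their group means together: the correlations of their deviations were 0.751, -0.0881 and -0.451 for replicates 1, 2 and 3. That of DMSO replicate 2 with Tan I replicate 3 was 0.758. These correlations cannot show whether same-numbered libraries were prepared together, since the gradient between libraries enters them. With the replicate block, 348 genes and 0 of the 9 PRC1 genes were called.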

Other observations

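Genes that act against PRC1, or share its chromobox fold, were read in the same way. Of 10 genes for the removal of ubiquitin from histone H2A, 9 were tested and 0 were called, with 3 above and 6 below 0 and a median log2 fold change of -0.10. Over all genes tested, 2.42% were called and 50.3% were below 0. BAP1, the deubiquitinase of the PR-DUB complex, had 3349, 3332 and 3550 normalized counts in DMSO and 3420, 3523 and 3507 in Tan I, a log2 fold change of 0.03 (interval -0.20 to 0.26). MYSM1, another H2A deubiquitinase, ranged from 1682 to 3705 normalized counts, both in Tan I. Of the 3 HP1 genes, which read H3K9 methylation with a related chromodomain, 0 were called. CBX5, the gene of HP1 alpha, had 25479, 13535 and 20622 normalized counts in DMSO and 26163, 17068 and 11730 in Tan I, and the lowest libraries were again DMSO replicate 2 and Tan I replicate 3, as for PHC1 and PHC3.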
